A study of Mus musculus with 8 samples.

Results

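The clustered histone genes are described here in bone marrow B cells from mice that had their ovaries removed (ovariectomy, OVX) or received a sham operation (Sham). They were taken as every row of the read count table whose gene symbol begins with Hist1, Hist2, Hist3 or Hist4, without pseudogenes marked as such in the symbol, and 69 of the 54532 genes listed met this rule. By protein name in the symbol they comprised 6 genes for the linker histone H1, 20 for H2A, 18 for H2B, 12 for H3 and 13 for H4. Hist1h2aj and Hist1h2al, both counted under H2A, are marked as pseudogenes in RefSeq. By symbol, 56 belonged to cluster 1, 10 to cluster 2, 2 to cluster 3 and 1 to cluster 4.

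RNA-seq was done on 3 libraries per group, made from B cells of the bone marrow, which the study enriched on magnetic beads. OVX lowers estrogen and serves as a model of bone loss after menopause, and the libraries were made to ask how B cells change with it. The labels of these libraries give no strain, age, transgene or time after surgery, and do not say whether a library came from 1 mouse or a pool, so p-values measure the spread between these libraries, which may be technical. A chromatin sample for HIF-1α and its input also belonged to the series and were not used here. Between 23838775 and 33136701 reads were assigned to genes per library.

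H2A, H2B, H3 and H4 form the protein core on which DNA is wound into a nucleosome, and H1 binds the DNA between nucleosomes. Most clustered genes are replication dependent: dividing cells transcribe them in S phase, when new DNA has to be packed, and their short intronless mRNAs end in a stem-loop, bound by SLBP, instead of a poly(A) tail. Most variant histones, such as H3.3, are encoded by genes outside the clusters and have polyadenylated mRNAs. In bone marrow, pro-B and large pre-B cells divide strongly and later B cells rest. Whether the reads counted here mark the cycling part of the lineage was not tested, since not every clustered gene is replication dependent.

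The start regions of some of the genes that the results turn on are shown first, as single examples from the 5 kinds of histone gene. Sequences are from RefSeq on GRCm38.p6 and give the 250 bases before the annotated start, except for a pair of neighbours, for which the whole stretch between the genes is given. Capitals mark 4 motifs searched on both strands: the octamer ATTTGCAT, read by the OCT factors of B cells and other cells; the TATA box TATAAA; the CCAAT box, CCAAT; and the AAACACA element known from H1 promoters.
Hist1h1c, the most abundant member, plus strand, chr13:23738557-23738806: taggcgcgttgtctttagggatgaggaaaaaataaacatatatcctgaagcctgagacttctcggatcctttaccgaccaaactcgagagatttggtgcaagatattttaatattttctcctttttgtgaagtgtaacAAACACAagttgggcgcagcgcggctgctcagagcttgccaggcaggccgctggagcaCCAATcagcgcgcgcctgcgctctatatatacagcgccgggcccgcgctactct
Hist1h3e, the member with the lowest p-value between the groups, minus strand, chr13:23562386-23562635: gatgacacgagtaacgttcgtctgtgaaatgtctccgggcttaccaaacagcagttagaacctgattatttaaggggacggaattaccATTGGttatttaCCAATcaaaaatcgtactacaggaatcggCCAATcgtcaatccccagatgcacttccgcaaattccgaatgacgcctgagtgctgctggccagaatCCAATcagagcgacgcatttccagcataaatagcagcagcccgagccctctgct
Hist1h4i, the most abundant H4 gene, minus strand, chr13:22041363-22041612: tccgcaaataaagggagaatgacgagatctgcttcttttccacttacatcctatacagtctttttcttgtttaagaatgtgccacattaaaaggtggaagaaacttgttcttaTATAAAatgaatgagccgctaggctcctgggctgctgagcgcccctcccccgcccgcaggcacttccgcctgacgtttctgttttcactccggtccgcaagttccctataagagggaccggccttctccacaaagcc
Hist1h2ae and Hist1h2bg, an H2A and an H2B gene that start away from each other, plus strand, chr13:23571221-23571399: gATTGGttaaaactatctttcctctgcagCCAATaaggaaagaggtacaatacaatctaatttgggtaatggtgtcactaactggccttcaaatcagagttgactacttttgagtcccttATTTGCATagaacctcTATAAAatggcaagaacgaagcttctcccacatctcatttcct

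The Hist1h3e stretch held 4 CCAAT boxes and the Hist1h1c stretch held 1 beside an AAACACA element. The 179 bases between Hist1h2ae and Hist1h2bg held 2 CCAAT boxes, 1 octamer and 1 TATA box, and the Hist1h4i stretch held a TATAAA but no CCAAT. Over windows from 250 bases before to 50 after the start, which RefSeq gave for 61 members, the octamer lay in 7 of 17 H2A and 7 of 16 H2B windows and in 0 of the H1, H3 and H4 windows. These 14 windows shared 11 octamer sites, because divergent neighbours hold the same one, and 1.74% of all 32851 promoters of the same length held the motif. CCAAT was in 52 of the 61 windows, among them every H1, H2A, H2B and H3 window but 3 of 12 for H4, beside 37.4% of all promoters. TATAAA was in 35 of 61, beside 13.6% of all promoters, and AAACACA in 5 of 6 H1 windows and 9 of 61 in all, beside 7.18%. A match is a description of letters and not a measured binding site.

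The clustered histone genes were a small share of the RNA that was sequenced. They took 6092, 4591 and 5589 reads in Sham replicates 1, 2 and 3 and 7323, 7766 and 9379 reads in OVX replicates 1, 2 and 3, or 0.0165% to 0.0299% of all assigned reads. No source used here says whether the kit was run with poly(A) selection, and these counts show only RNA that the library preparation kept. Of 17 other RNAs without a poly(A) tail that were looked up, 7 were listed at 0 in every library and 3 passed the filter on low counts. The highest of them was Rn7sk, a small RNA that holds back transcription elongation, at 26.7, 18.5 and 35.4 CPM (counts scaled to a common library total with TMM factors) in Sham and 27.4, 29.2 and 38.4 CPM in OVX. The values of these RNAs cannot decide whether poly(A) selection was used, since how small RNAs were kept and counted is not given.

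Hist1h1c (ENSMUSG00000036181, chr13:23738807-23739531), which encodes the linker histone H1.2, alone held 32.9% to 39.7% of the members' reads. With Hist2h2be, Hist1h4i, Hist1h2bc, Hist3h2ba and Hist3h2a it made up 61.3% to 71.2%. Per kilobase of RefSeq gene span, the order of mean levels over the 6 libraries was led by Hist1h1c at 119 CPM per kb, then Hist1h4i at 49.5, Hist3h2ba at 25.1, Hist3h2a at 18.3 and Hist1h2bg at 17.1 CPM per kb. This scale could be formed for 61 members, and Hist1h2bc, whose several transcripts span 8282 bases, was not among them.

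At the other end, 9 members were listed at 0 reads in every library, and 10 more had at most 21 reads in any library and did not pass the filter. Those at 0 were Hist1h1t, Hist1h2aa and Hist1h2ba, which are known from testis, and Hist1h2al, Hist2h2aa1, Hist2h2aa2, Hist2h2bb, Hist2h3b and Hist2h3c1. Hist2h2aa1 and Hist2h2aa2 are near-identical copies, and many other members share long stretches of coding sequence. How the counting treated reads that match several copies is not given in the sources used here, so the value of a single copy is less certain than that of a class. A count of 0 allows a share of up to 1.26e-05% of reads in the shallowest library, for counting error only.

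The sum over all 69 members was 257, 162 and 225 CPM in Sham replicates 1, 2 and 3, and 298, 274 and 284 CPM in OVX replicates 1, 2 and 3. Every OVX library was above every Sham library, with Sham replicate 2 far the lowest and the OVX libraries close together. The means were 215 ± 48.5 CPM in Sham and 285 ± 12.2 CPM in OVX (SD, n = 3 each), a ratio of 1.33 or 0.41 on the log2 scale. No test was made of the sum. Without Sham replicate 2 the log2 ratio was 0.24, and without Sham replicate 1 it was 0.56.

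**Figure D1:**
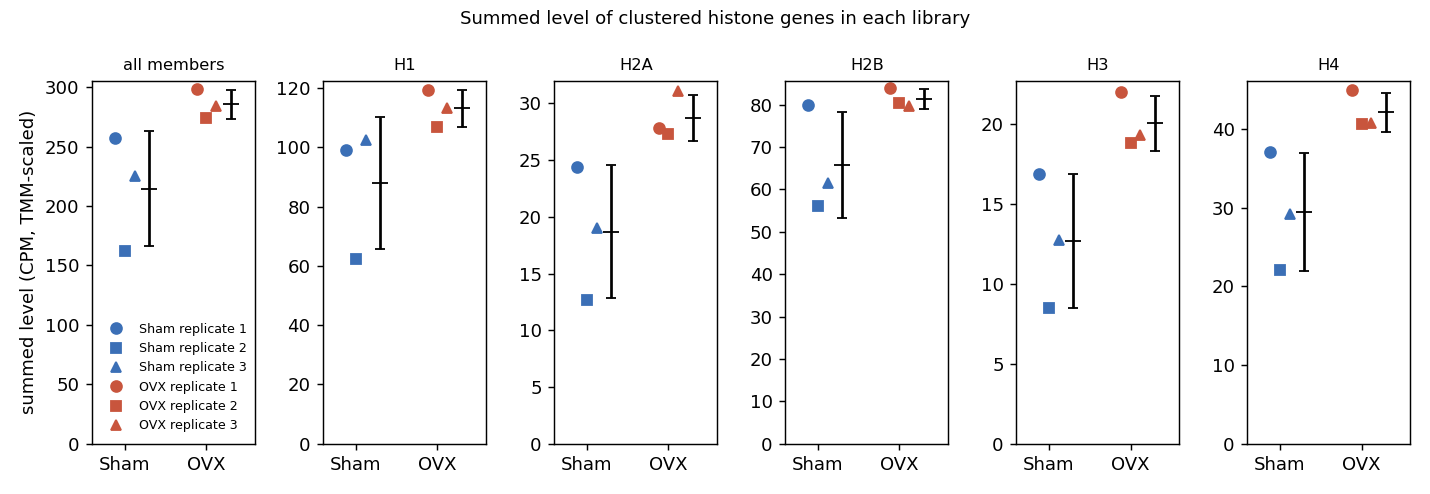
Summed level in CPM (vertical axis, from 0) of all members and of the genes for each histone, in the 3 Sham (blue) and 3 OVX (red) libraries, with the mean and SD of each group as a black bar. For all members together the OVX libraries sat between 274 and 298 CPM and the Sham libraries between 162 and 257 CPM, and Sham replicate 2 was the lowest library in every panel.

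The same order of groups was seen for each kind of histone. H1 genes summed to 87.9 ± 22.2 CPM in Sham and 113 ± 6.30 CPM in OVX, a log2 ratio of 0.36, and H2B genes to 65.8 ± 12.5 and 81.4 ± 2.32 CPM, a log2 ratio of 0.31. H2A genes summed to 18.7 ± 5.85 CPM in Sham and 28.7 ± 2.04 CPM in OVX, a log2 ratio of 0.62. H3 genes went from 12.7 ± 4.19 to 20.0 ± 1.73 CPM, a log2 ratio of 0.66, and H4 genes from 29.5 ± 7.47 to 42.1 ± 2.46 CPM, a log2 ratio of 0.52. Within H2B the Sham replicate 1 sum, 79.9 CPM, was above the OVX replicate 3 sum, 79.7 CPM, so those groups overlapped; the H1, H2A, H3 and H4 groups did not. Whether the ratios differ between kinds of histone was not tested.

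No single member passed the test. In edgeR's quasi-likelihood test over all 15305 genes that passed the filter, 50 of them members, 0 of 50 members were called at a Benjamini-Hochberg adjusted p under 0.05 with a fold of at least 1.6, beside 0% of all genes tested called higher and 0% called lower. The smallest adjusted p of a member was 0.811, which was also the smallest of any gene. At an unadjusted p under 0.05, 8 of 50 members were higher in OVX, beside 1.47% of all genes tested, and 0 of 50 were lower, beside 2.28%. At the same unadjusted p DESeq2 had 12 of 60 members higher, beside 0.744% of all genes tested, and limma-voom 12 of 50, beside 1.59%, with 0 called by either.

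Every one of the 50 tested members had a fitted log2 fold change above 0, as did 48.2% of all genes tested. The median of the members was 0.55, beside -0.0081 for all genes tested, and the values ran from 0.12 (Hist1h2an) to 1.27 (Hist1h2bp). The standard error of a member had a median of 0.37. The filter can let a low gene in through the group where it is high, so the count was also taken with no filter on low counts, where 58 of the 60 members with any read had a value above 0. Without Sham replicate 2 it was 49 of 53, and the median was 0.35, beside -0.0024 for all genes tested. The share of all genes above 0 in these refits is not given here. Without Sham replicate 1 the median was 0.90, and 24 of 54 members were higher at an unadjusted p under 0.05, with 0 called. The share of all genes tested that were higher at that p was also larger in this fit, 7.81%.

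**Figure D2:**
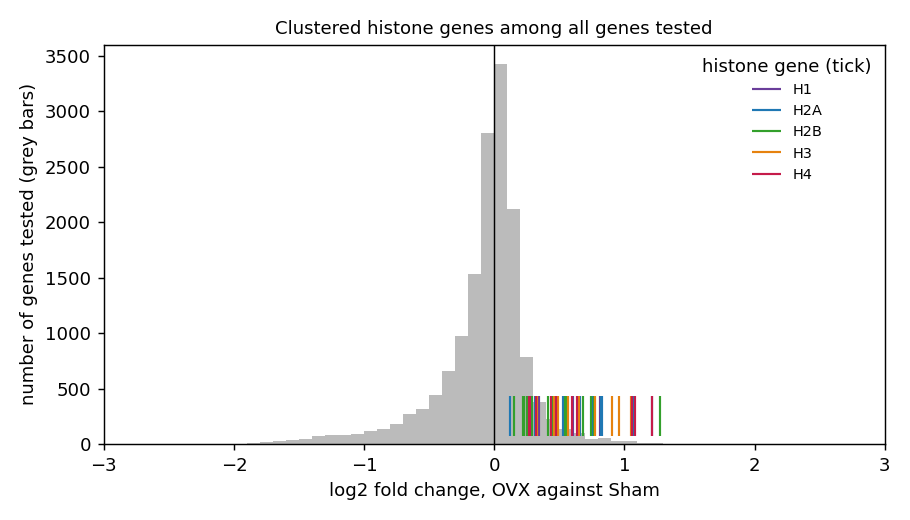
Number of genes tested (grey bars, bins of 0.1) by fitted log2 fold change of OVX against Sham, with 1 coloured tick for each of the 50 tested histone genes. The ticks all lie right of 0, from 0.12 to 1.27, while the bulk of the grey bars is centred near 0.

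In 16 of 50 members the lowest of the OVX libraries was above the highest of the Sham libraries, beside 4.33% of all genes tested, and in 0 of 50 the groups were apart the other way, beside 4.12%. The level was lowest in Sham replicate 2 for 38 of 50 members, beside 28.8% of all genes tested. It was highest in OVX replicate 1 for 21 of 50, beside 10.2% of all genes tested, and in OVX replicate 3 for 17, beside 13.1%. OVX replicate 2 was highest for 8, beside 18.4%, and Sham replicate 1 for 4, beside 14.3%. Sham replicate 2 was thus the low library for most members, and Sham replicate 1 was the Sham library nearest to OVX in the sum. An exact permutation test of 3 against 3 libraries cannot go below p = 0.1, two-sided, which is the value these 16 members had.

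**Figure D3:**
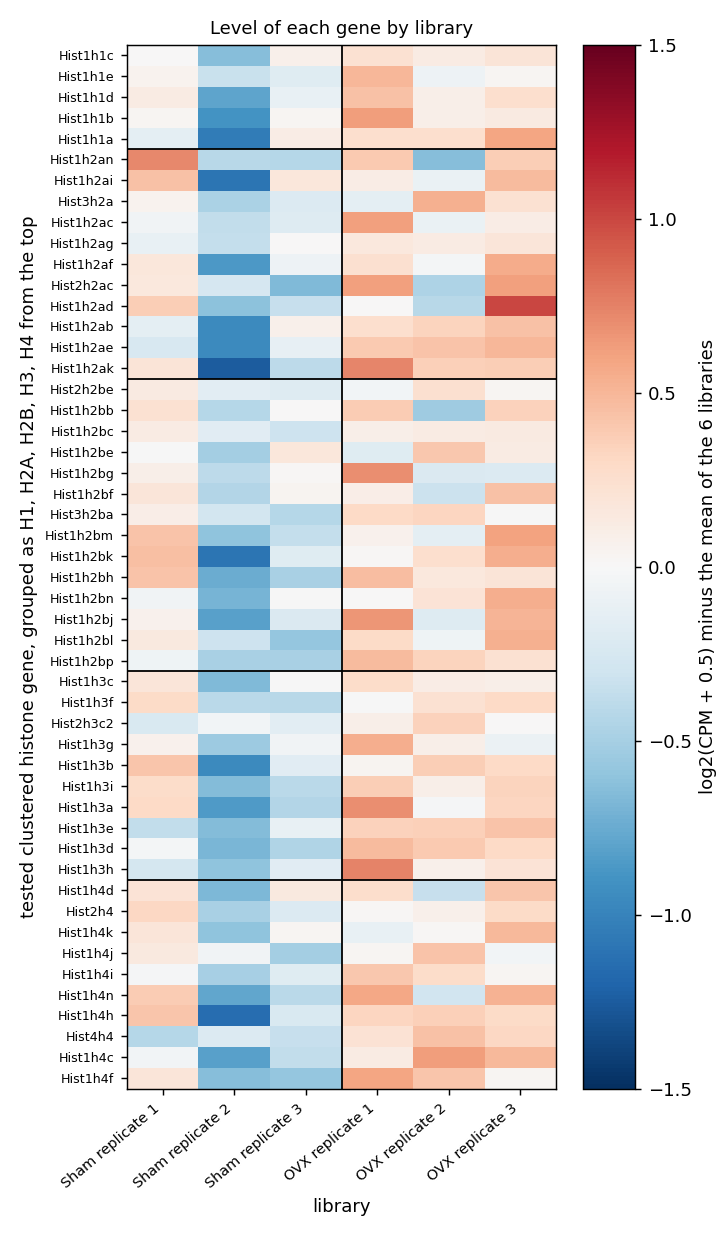
Level of each of the 50 tested members (rows, grouped by histone) in each library (columns), as log2(CPM + 0.5) minus the mean of the 6 libraries, blue below and red above it. The Sham replicate 2 column is the bluest, being the lowest library for 38 of 50 members, and the OVX columns are mostly red.

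Among the H1 genes, which encode the main linker histones of dividing cells, Hist1h1c had 84.6, 54.2 and 89.2 CPM in Sham and 99.3, 92.3 and 96.7 CPM in OVX. The OVX libraries were close together and above all Sham libraries, of which replicate 2 was far the lowest. Its log2 fold change was 0.34 with a standard error of 0.17 (adjusted p = 0.811, edgeR's quasi-likelihood test). Hist1h1a had 1.94, 0.81 and 2.41 CPM in Sham and 2.73, 2.72 and 3.57 CPM in OVX, and Hist1h1b had 3.08, 1.37 and 3.06 against 4.89, 3.21 and 3.33 CPM. In both the groups were apart, with Sham replicate 2 again lowest, and the log2 fold changes were 0.81 and 0.61.

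H3 genes gave 3 of the 8 members at an unadjusted p under 0.05. Hist1h3e (ENSMUSG00000069273, chr13:23561475-23562385) had 40, 37 and 53 reads in Sham and 76, 89 and 110 in OVX, or 1.69, 1.30 and 2.13 CPM against 3.10, 3.14 and 3.33 CPM. Its log2 fold change was 0.90 with a standard error of 0.25 (unadjusted p = 0.0082 and adjusted p = 0.811, edgeR's quasi-likelihood test). The groups were well apart, and the OVX libraries lay close together. Hist1h3d had 1.77, 0.951 and 1.21 CPM in Sham and 2.73, 2.54 and 2.36 CPM in OVX, a log2 fold change of 0.96. Hist1h3h had 0.760, 0.493 and 0.845 CPM in Sham and 2.04, 1.09 and 1.24 CPM in OVX, with 1 high OVX library and a log2 fold change of 1.05.

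H4 genes, which all encode the same or nearly the same protein, gave another 3. Hist1h4i (ENSMUSG00000060639, chr13:22040960-22041362) had 456, 389 and 425 reads in Sham and 636, 670 and 661 in OVX, or 19.2, 13.7 and 17.1 CPM against 25.9, 23.6 and 20.0 CPM. It had the most reads of these 8 members, and its log2 fold change was 0.47 with a standard error of 0.16 (unadjusted p = 0.0206, edgeR's quasi-likelihood test). Hist1h4c had 1.44, 0.634 and 1.05 CPM in Sham and 1.67, 2.58 and 2.30 CPM in OVX, a log2 fold change of 1.08. Hist4h4 (ENSMUSG00000096010, chr6:136803993-136804431), the lone gene of cluster 4 and on another chromosome than the large clusters, had 11, 18 and 13 reads in Sham and 25, 36 and 37 in OVX. Its groups of 0.464, 0.634 and 0.523 against 1.02, 1.27 and 1.12 CPM did not overlap, and its lowest library was Sham replicate 1. It had few reads, with 18 in the highest Sham and 25 in the lowest OVX library (adjusted p = 0.811, edgeR's quasi-likelihood test). The 250 bases before its start held none of the 4 motifs.

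Among H2A and H2B genes, Hist1h2ae and Hist1h2bp were at an unadjusted p under 0.05. Hist1h2ae had 1.48, 0.704 and 1.65 CPM in Sham and 2.57, 2.65 and 2.79 CPM in OVX, a log2 fold change of 1.07 with a standard error of 0.34. Hist1h2bp had 13, 8 and 7 reads in Sham and 25, 25 and 26 in OVX, a log2 fold change of 1.27. The most abundant H2B gene, Hist2h2be, had 25.7, 21.0 and 20.5 CPM in Sham and 22.8, 27.8 and 23.9 CPM in OVX; its groups overlapped and its log2 fold change was 0.15. The cluster 3 genes Hist3h2a and Hist3h2ba had log2 fold changes of 0.45 and 0.41, and both groups overlapped.

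**Figure D4:**
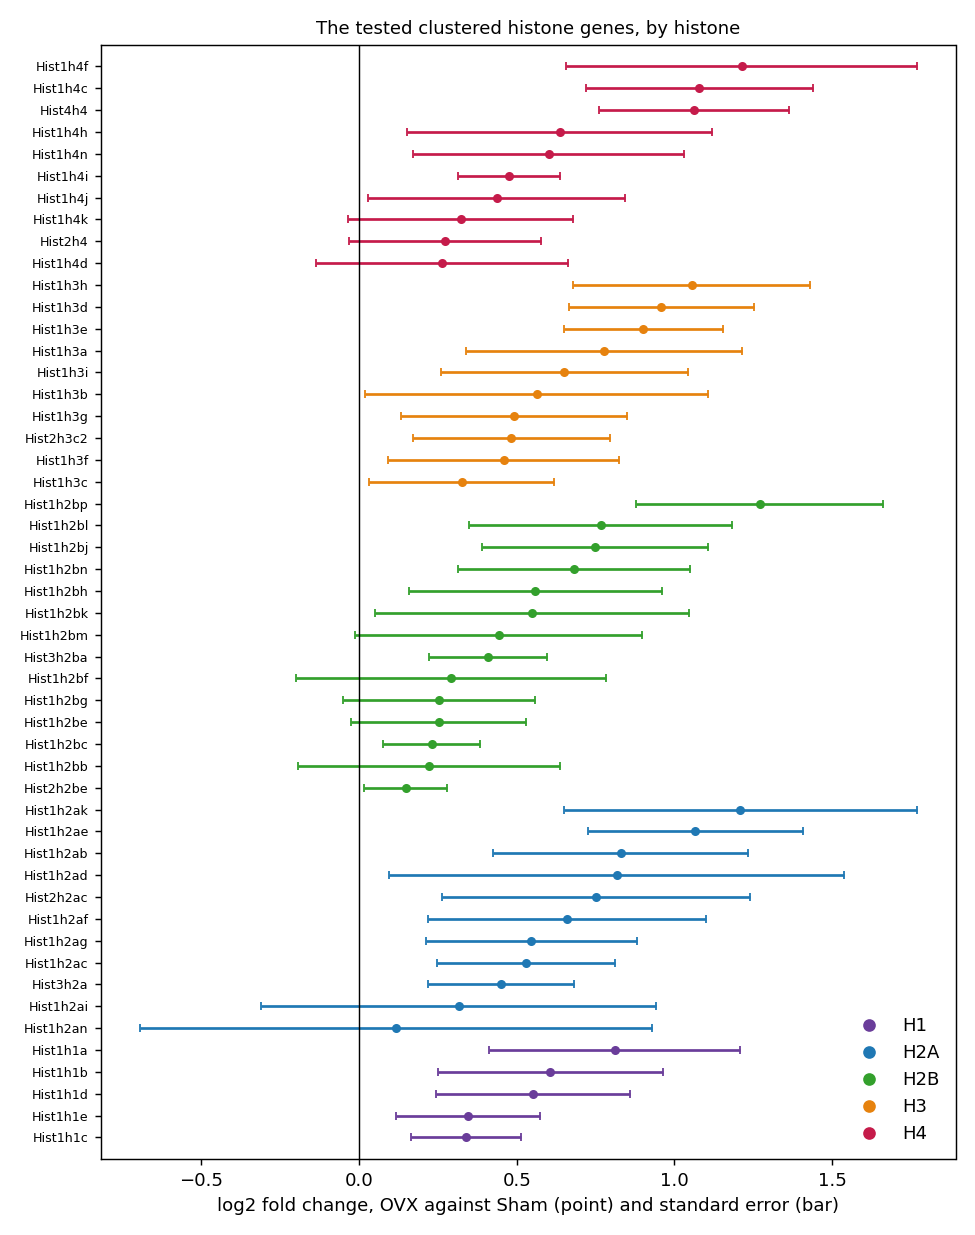
Fitted log2 fold change of OVX against Sham (point) and its standard error (bar) for the 50 tested members, ordered within each histone. All points lie right of 0, from 0.12 for Hist1h2an to 1.27 for Hist1h2bp.

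H2A and H2B genes often sit head to head, and 12 such neighbours lay within 400 bases, 163 to 280 bases apart. RefSeq gave the strands of both genes for 9 of the 12, all divergent, and both genes were tested in 8 of the 12. The fitted values of neighbours were unequal in some. Hist1h2ae had a log2 fold change of 1.07 and Hist1h2bg, 179 bases away across the stretch shown above, 0.25. Hist1h2bg had 8.19, 5.71 and 7.76 CPM in Sham and 12.7, 6.53 and 6.57 CPM in OVX, so that only OVX replicate 1 stood above the Sham libraries. Hist1h2an and Hist1h2bp, 234 bases apart, had 0.12 and 1.27, the lowest and the highest of all tested members, with standard errors of 0.81 and 0.39. No difference within a pair was tested.

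The members of cluster 1 lie on chromosome 13 in blocks. The block at chr13:21715711-21837530 held 18 members, 13 of them tested, and their median log2 fold change was 0.61. The block at chr13:22035122-22043658 held 5, with 4 tested and a median of 0.55. The largest, at chr13:23531044-23764412, held 29, with 26 tested and a median of 0.55. The medians of the 3 blocks were thus close to each other and to that of all tested members. The pair of members at chr13:23933725-23934913 was listed at 0, as was Hist1h2al, which lies outside the blocks at chr13:51200084-51203066. Clusters 2 and 3, on chromosomes 3 and 11, had medians of 0.38 over 4 tested members and 0.43 over 2.

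By abundance, the 6 most abundant members summed to 144 ± 25.6 CPM in Sham and 181 ± 4.61 CPM in OVX, a log2 ratio of 0.33, and the other 63 to 70.6 ± 23.3 and 104 ± 13.3 CPM, a log2 ratio of 0.56. Among the 63 the lowest OVX library, 89.7 CPM, was below the highest Sham library, 92.9 CPM. Without Hist1h1c the sum gave a log2 ratio of 0.45. The 28 tested members under 2 CPM had a median log2 fold change of 0.66 and the 22 at 2 CPM or more a median of 0.50.

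Genes around the histone pathway were then counted from lists, and none of their genes was called. All 10 tested variant histone genes had a value above 0 but with a median of 0.17, led by H1f0, a linker histone of resting cells, at 0.33 by lowest p, while H3f3b, which encodes H3.3 and had the highest level, was at 0.03. Without Sham replicate 2 the variant histones had 7 of 10 above 0 and a median of 0.11, and without Sham replicate 1 a median of 0.29. Of 19 genes for histone mRNA transcription and processing 15 were above 0, with a median of 0.12, which was 0.02 without Sham replicate 2 (13 of 19 above 0). Slbp, the stem-loop binding protein, was at 0.15, Lsm10, part of the U7 particle that cuts the mRNA end, at -0.31, and Pou2af1, the B cell coactivator that works with OCT factors at the octamer, at 0.15. Of 13 histone chaperones, which carry histones to DNA, 11 were above 0 with a median of 0.06.

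Genes of the cell cycle had smaller fitted values than the histones, a difference that was not tested. Of 22 S phase genes 18 were above 0, their median log2 fold change being 0.04, and all 15 mitosis genes were above 0, with a median of 0.14. Without Sham replicate 2 the S phase median was -0.05, with 5 of 22 above 0, the mitosis median was -0.03, with 5 of 15 above 0, and the chaperone median was -0.01, with 5 of 13 above 0, while the histone members had a median of 0.35. Without Sham replicate 1 the S phase median was 0.11 and the mitosis median 0.29, beside 0.90 for the histone members. Without OVX replicate 1 the S phase median was -0.0081, with 9 of 22 above 0, and the mitosis median 0.09. Without OVX replicate 3 the S phase median was 0.095, and without Sham replicate 3 it was 0.07. Scaled by library size alone, 13 of 22 S phase genes were above 0. Per 100 CPM of the summed S phase genes, the members had 8.54, 7.15 and 8.14 CPM in Sham and 9.82, 9.66 and 10.7 CPM in OVX. Per 100 CPM of the mitosis genes they had 6.31, 6.10 and 6.18 CPM in Sham and 7.15, 7.35 and 8.14 CPM in OVX. On both scales the groups did not overlap and the Sham libraries came closer together, with log2 ratios of 0.34 and 0.28. Per 100 CPM of variant histones the log2 ratio was 0.28, also without overlap. These scales were chosen after the data were seen.

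Markers of B cell stage also varied between the libraries. The 11 pro-B and pre-B markers summed to 1643 to 3089 CPM in Sham and 2488 to 3246 CPM in OVX. Of these 9 of 11 were above 0, and their median log2 fold change was 0.33. Il7r, the receptor on which early B cells depend, was at 0.33. Rag1, of the recombinase that joins antibody gene segments, was at 0.48. Below 0 were Kit, by which the study gated pro-B cells, at -0.21 and Vpreb2 at -0.06. Rag1 weighed heavily in the sum, with means of 969 of 2265 CPM in Sham and 1347 of 2976 CPM in OVX. The median of these markers was 0.49 without Sham replicate 1, 0.19 without Sham replicate 2 and 0.18, with 7 of 11 above 0, without Sham replicate 3. Per 100 CPM of these markers the histone members had 8.32, 9.84 and 10.9 CPM in Sham and 11.99, 8.58 and 8.75 CPM in OVX, so the groups overlapped and the log2 ratio was 0.012. The 7 mature B markers, among them Ighd and Fcer2a, summed to 1146 to 2739 CPM in Sham and 1243 to 1526 CPM in OVX. Their highest library was Sham replicate 2, in which the histones were lowest. Of these markers 1 of 7 was above 0, with a median log2 fold change of -0.33. Without Sham replicate 2 the sign turned, with 7 of 7 above 0 and a median of 0.12. In bulk RNA, fewer cells of a stage and less RNA per cell cannot be told apart, and the part of B cell stage in the histone values was not tested.

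Markers of other lineages were read beside those of B cells, although the cells were enriched as B cells. Cd79a, part of the B cell receptor, was at 1666 ± 113 CPM in Sham and 1736 ± 170 CPM in OVX, and Ebf1, an early B cell transcription factor, at 452 ± 69.2 and 578 ± 24.2 CPM (SD, n = 3 each). The 16 neutrophil markers summed to 2568 to 9525 CPM in Sham and 1137 to 4124 CPM in OVX, all 16 with a value below 0, and Sham replicate 3 was the highest. All 11 monocyte and macrophage and all 10 erythroid markers were below 0 as well, with the sign of the former turned without Sham replicate 2 (8 of 11 above 0), and with sums of 719 to 1905 against 540 to 1516 CPM and 224 to 481 against 146 to 295 CPM. T and NK markers summed to 15.8 to 48.4 CPM and plasma cell markers to 946 to 1411 CPM over all libraries, with medians of -1.35 and -0.19. Megakaryocyte markers were at 70.0 to 85.3 CPM in Sham and 81.6 to 204 CPM in OVX. No marker list had a gene at 0 in every library, and the part of these cells in the histone values was not tested.

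**Figure D5:**
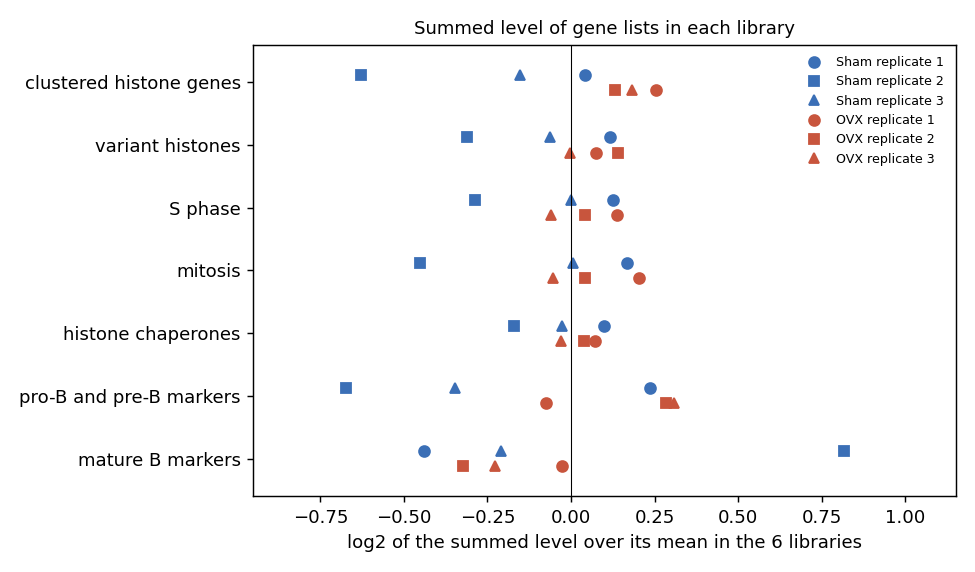
Summed level of the histone genes and 6 other gene lists in each library as log2 of its ratio to the mean of the 6 libraries (horizontal axis), for Sham (blue) and OVX (red), with a symbol for each replicate. The histone genes spread more widely than the S phase, mitosis, variant histone and chaperone lists and about as widely as the pro-B and pre-B markers, and of the lists plotted Sham replicate 2 is lowest in all but the mature B markers, where it is highest.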

How the data were processed

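RNA of bone marrow B cells was sequenced for the study by Novogene, from libraries made with the Illumina TruSeq RNA kit. The read count per gene and library was deposited as raw counts. The submitters' processing notes name CASAVA, Bowtie 0.12.2 and mm10; the counting tool, its annotation and its use of strand are not given in the sources used here. Groups and replicate numbers came from the sample titles. The members and gene lists were chosen with earlier results of these data known.

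Counts were tested with edgeR 4.0.16 (R 4.3.3; glmQLFit and glmQLFTest, TMM factors, filterByExpr by group) over all genes, and a gene was called at a Benjamini-Hochberg adjusted p under 0.05 with a fold of at least 1.6. CPM values are counts divided by the reads of the tested genes times the TMM factor, on the usual CPM scale, and standard errors were derived from the fold change and the F statistic. The fit was tested on simulated data. Named members were the 4 most abundant per histone, the 5 with the lowest p, and the highest and lowest fold change. Members whose groups did not overlap were also open to naming. Where genes of a list were named, they were the gene of lowest p and that of highest level. Slbp was added for its role, and Kit and Vpreb2 as the pro-B and pre-B markers below 0. No gene of the other lists was named. DESeq2 1.42.0, limma-voom (limma 3.58.1), other scalings and filters, a replicate block and each library left out were the alternatives. Same-numbered OVX and Sham libraries had correlations of -0.47, -0.24 and -0.34 between their deviations from the group means. No pairing by number was seen, but 3 libraries per group cannot exclude one, and the main fit used no replicate block. No pair of libraries agreed within sampling noise (chi-square per degree of freedom of 9.29 or more, over all genes tested). The lowest value, 9.29, was between Sham replicate 1 and OVX replicate 2. Sham replicate 1 had 11.9 and 13 with OVX replicates 1 and 3, and 58.3 and 34.5 with Sham replicates 2 and 3. By this measure Sham replicate 1 was closer to each OVX library than to the other Sham libraries. The summed level of the general B lineage markers is not reported here. Gene positions and promoters came from RefSeq GRCm38.p6, the reference build of mm10, in which 68 of 69 members matched 1 gene and 61 had a promoter; Hist1h2ap matched no single gene. The intervals of depth cover counting error only.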

Additional observations from a re-analysis of the deposited data

How the results depend on the processing

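No gene was called in the main analysis or in any of 15 alternatives, members included, so the direction and size of the member values rest on uncalled differences; the smallest adjusted p in any left-out fit was 0.273, without Sham replicate 1. Members higher in OVX at an unadjusted p under 0.05 were 8 of 50 in the main analysis (1.47% of all genes tested) and 14 of 60 with no filter on low counts (1.33%). With 1 library left out they were 7 to 24: 7 of 53 without Sham replicate 2 (0.788%) and 24 of 54 without Sham replicate 1 (7.81%). The replicate block gave 12 of 50 (0.484%) and a median of 0.63 and changed no call. The median member log2 fold change was 0.35 to 0.90 with 1 library left out, lowest without Sham replicate 2 and highest without Sham replicate 1, and 0.54 to 0.68 under the other scalings, filters and tools. The log2 ratio of the summed level was 0.24 to 0.56 with 1 library left out, and 0.012 relative to the pro-B and pre-B markers, a scale added after the data were seen; the cause was not tested. Of 420 values of the 30 named members under alternatives, 415 kept their direction and side of the threshold. Those that turned sign belonged to Hist1h2an, which ran from -0.24 to 1.23 with 1 library left out and was negative without either of Sham replicates 2 and 3 (both -0.24) and without OVX replicate 1 (-0.18) or 3 (-0.19). Hist1h2bg ran from -0.14 to 0.42 and was negative without OVX replicate 1. At this depth, the 10 members with at most 21 reads in any library did not pass the filter on low counts.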
